A study of Mus musculus with 6 samples.

Results

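Genes of the choroid plexus, the secretory epithelium that hangs into the brain ventricles, were read in RNA of mouse brain tissue labelled as whole hippocampus, as a check on the dissection, and compared between pups given ethanol and pups given saline. The members were Ttr, Kl, Folr1, Clic6, Kcne2, Aqp1, Sostdc1, Prlr, Otx2 and Enpp2, a list of 10 genes chosen by name. A member was read from a probe row whose annotation names that gene alone, and 8 of the 10 had such a row, out of 22180 genes measured in all. For Prlr, the prolactin receptor, and Enpp2, the lysophospholipase autotaxin, no row naming the gene alone was found, and they were not analysed here. Each of the 8 genes had 1 row, so no choice between rows was needed.

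The values were log2 expression on 6 Affymetrix whole-transcript arrays, 3 per group, with a pool of 3 mice behind every array. All animals were C57BL/6J, an inbred strain, and male per the treatment protocol, which counts 18 mice. Ethanol pups were dosed subcutaneously at 2.5 g/kg of ethanol, dissolved in NaCl at 0.15 M, in 2 injections 2 hours apart, on postnatal days 4 and 7, and control pups were given saline instead. The labels give the tissue as whole hippocampus and disagree on age: 21 days in the sample characteristics and the design text, day 70 in the treatment protocol. The labels do not say whether the 3 pools of a group came from separate litters, and a p-value here reflects only how much these pools varied. The median over all rows lay between 6.55 and 6.66 on the arrays. The marker levels went against RNA of hippocampus alone. The median level of 15 hippocampal neuron genes lay between 6.54 and 6.72, level with the median row. Among them the forebrain factor Neurod6 lay between 6.62 and 6.96, Emx1, another one, between 6.19 and 6.53, and the pyramidal cell gene Spink8 between 5.57 and 5.84. Other genes of the list lay higher. Neurod2 lay between 10.53 and 10.70, Wfs1 between 8.68 and 8.82 and Bok between 7.68 and 7.87. Prox1, the factor of dentate granule cells, lay between 8.02 and 8.30. Of 12 genes of cerebellar neurons all lay above the median row, with a list median between 10.82 and 11.05. Gabra6, a receptor subunit found in cerebellar granule cells, lay between 12.03 and 12.31 and Cbln3, a synaptic organizer of the same cells, between 12.00 and 12.19. Probes bind with different strength, so the levels give no share of each tissue, and no source region is assumed for the choroid plexus genes.

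The choroid plexus makes cerebrospinal fluid. Its epithelial cells move ions and water across their ventricular face, carry vitamins from blood to fluid and secrete carrier proteins. It lies in the lateral, the third and the fourth ventricle, beside hippocampus, thalamus and cerebellum among others, and can be taken along when such a region is dissected. Klotho is also known from neurons, Purkinje cells among them. Fewer plexus cells and less RNA per cell cannot be told apart in bulk RNA.

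The 8 genes did not differ between ethanol and saline by the test, but most of them varied together between arrays of the same group. Ethanol array 3 was the highest of the 6 arrays for 6 of the 8 genes, and ethanol array 2 was the lowest for 5 of them. For the 5 genes with both extremes every saline array lay between ethanol arrays 2 and 3; for Folr1, Kcne2 and Otx2 the lowest array was saline array 1. The widest spread was that of Kl, at 1.01 on the log2 scale between ethanol arrays 2 and 3.

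OTX2 is a homeodomain transcription factor needed for the choroid plexus to form and to be maintained, and it binds the core letters TAATCC. This motif was looked for in the RefSeq start-site windows of mouse build GRCm38.p6. They reach from 250 bases before to 50 bases after a start site. Windows were given for Kl, Aqp1, Kcne2 and Otx2, 8 in all, and none for Ttr, Folr1, Clic6 and Sostdc1. TAATCC or its reverse complement GGATTA was in 1 of the 8 windows, 1 of the 4 belonging to Otx2, against 7.06% of all 32851 windows of that length. Over 36 other choroid plexus genes, 32 had windows, and 3 of their 40 windows (7.5%) held it. The upstream part of the Otx2 window with the match is shown because Otx2 is both the factor and a member, and that of Kl because its level varied most; the match is in capitals. The Otx2 stretch is chr14:48665110-48665359 on the minus strand, and the Kl stretch is chr5:150952357-150952606 on the plus strand.
Otx2: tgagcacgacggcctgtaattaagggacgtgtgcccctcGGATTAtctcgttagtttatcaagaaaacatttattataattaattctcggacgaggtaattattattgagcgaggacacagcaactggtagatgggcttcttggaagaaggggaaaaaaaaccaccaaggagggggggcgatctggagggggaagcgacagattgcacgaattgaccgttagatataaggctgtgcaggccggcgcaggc
Kl: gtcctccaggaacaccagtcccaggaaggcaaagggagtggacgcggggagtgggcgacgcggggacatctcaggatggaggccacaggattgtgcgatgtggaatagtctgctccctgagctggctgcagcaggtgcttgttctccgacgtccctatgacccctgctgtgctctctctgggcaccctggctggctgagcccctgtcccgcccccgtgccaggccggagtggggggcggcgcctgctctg
The match starts 211 bases before the Otx2 start site, and the Kl stretch holds neither form. These letters are a description of the windows only, and a part of OTX2 in the spread between arrays was not tested.

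Among the secreted and carrier proteins, Ttr encodes transthyretin, which carries thyroid hormone and retinol-binding protein and is the classic product of this epithelium. Ttr stood at 13.21, 13.07 and 13.35 on ethanol arrays 1 to 3 and at 13.19, 13.19 and 13.30 on saline arrays 1 to 3. All saline arrays lay between ethanol arrays 2 and 3, so the groups overlapped. The highest value of any row on an array was 13.83 to 13.89, so Ttr lay close to the top of the scale. Its difference, ethanol minus saline, was -0.02 ± 0.10 (log2 ± SE, 3 arrays against 3; limma, Benjamini-Hochberg adjusted p = 0.978).

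Kl encodes klotho, the co-receptor of the hormone FGF23, whose outer part is shed into cerebrospinal fluid. Kl stood at 9.08, 8.55 and 9.56 on ethanol arrays 1 to 3 and at 8.84, 8.95 and 9.17 on saline arrays 1 to 3. Ethanol array 3 was 2.01 times ethanol array 2, while the saline arrays spanned 0.33 on the log2 scale. Of all genes, 99.1% had a narrower range over the 6 arrays. The group means were 9.06 ± 0.50 for ethanol and 8.99 ± 0.17 for saline (SD, n = 3). The difference was 0.08 ± 0.24 (SE; limma adjusted p = 0.960), with a 95% interval from -0.49 to 0.65.

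Folr1 encodes folate receptor alpha, which carries folate across the epithelium into the fluid. Folr1 stood at 8.16, 7.91 and 8.21 on ethanol arrays 1 to 3 and at 7.86, 8.16 and 8.02 on saline arrays 1 to 3. Saline array 1 was the lowest here and ethanol array 2 the next, and the groups overlapped, with a difference of 0.08 ± 0.12 (SE; limma adjusted p = 0.924). Sostdc1 encodes a secreted antagonist of BMP and Wnt ligands. It stood at 8.70, 8.53 and 9.11 on ethanol arrays 1 to 3 and at 8.55, 8.73 and 8.82 on saline arrays 1 to 3. Ethanol array 3 was again the highest, 1.5 times ethanol array 2, and the saline arrays fell between them. The Sostdc1 difference was 0.08 ± 0.16 (SE; limma adjusted p = 0.943).

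**Figure D1:**
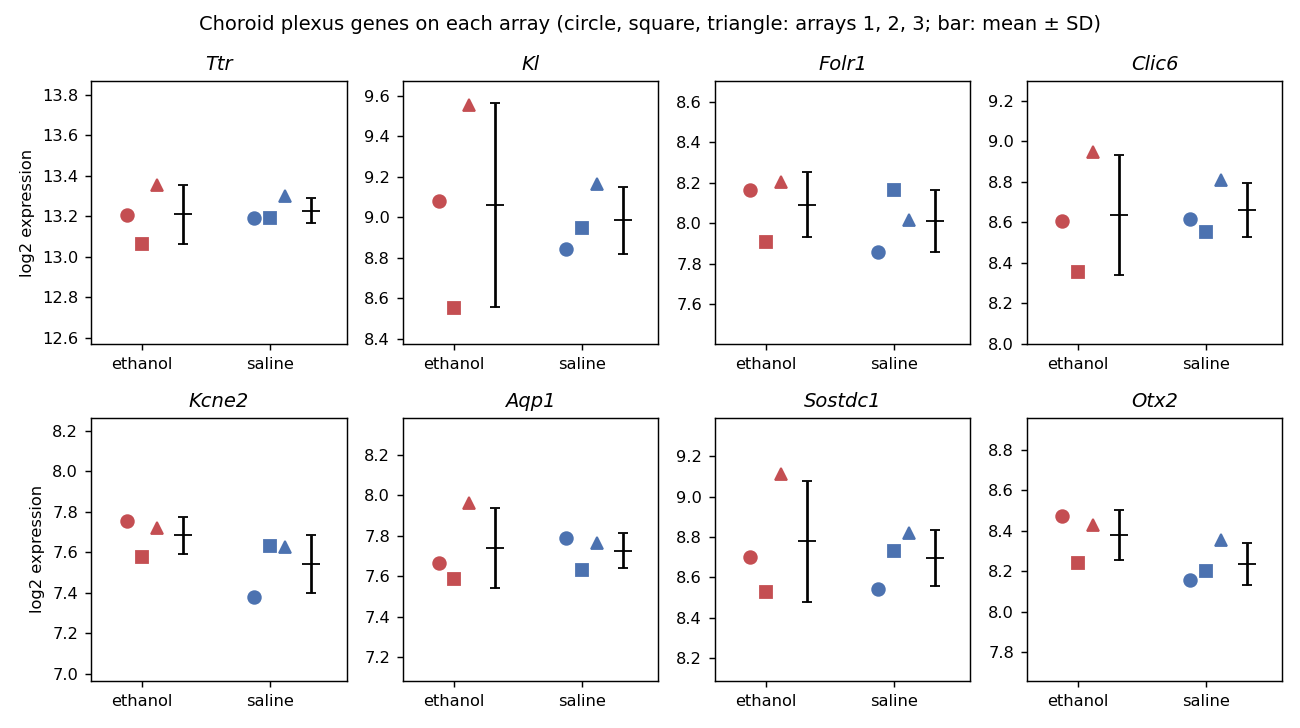
Log2 expression of the 8 measured choroid plexus genes on each array (red ethanol, blue saline; circle, square and triangle are arrays 1, 2 and 3; bars are the group mean ± SD, n = 3), every panel spanning the same height on the log2 scale. Ethanol array 3 is the highest point in 6 panels and ethanol array 2 the lowest in 5, and the groups overlap in every panel.

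Among the channels, Clic6 encodes a chloride intracellular channel protein. Clic6 stood at 8.61, 8.35 and 8.95 on ethanol arrays 1 to 3 and at 8.62, 8.55 and 8.81 on saline arrays 1 to 3. The array order was close to that of Ttr, with ethanol array 3 at 1.51 times ethanol array 2, and the difference was -0.03 ± 0.16 (SE; limma adjusted p = 0.980). Aqp1, the water channel of the ventricular face, stood at 7.66, 7.59 and 7.96 on ethanol arrays 1 to 3 and at 7.79, 7.63 and 7.76 on saline arrays 1 to 3. Array 2 was the lowest in each group, and the difference was 0.01 ± 0.12 (SE; limma adjusted p = 0.990).

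Kcne2 encodes a potassium channel beta subunit of the same face. It stood at 7.75, 7.58 and 7.72 on ethanol arrays 1 to 3 and at 7.38, 7.63 and 7.62 on saline arrays 1 to 3. Its pattern was set apart by saline array 1, the lowest, while ethanol array 2 lay only a little below saline arrays 2 and 3. The difference was 0.14 ± 0.10 (SE; limma adjusted p = 0.864), with overlapping groups. Kcne2 and Clic6 both lie on chromosome 16 of GRCm38, Kcne2 from 92292389 to 92298133 and Clic6 from 92498147 to 92541241. The stretch between them is 200013 bases long, and whether it holds other genes was not looked at. Their array patterns differed: Clic6 spanned 0.59 within the ethanol group and Kcne2 0.17.

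Otx2, the transcription factor, stood at 8.47, 8.24 and 8.43 on ethanol arrays 1 to 3 and at 8.16, 8.20 and 8.35 on saline arrays 1 to 3. Ethanol arrays 1 and 3 were the highest pair and saline arrays 1 and 2 the lowest, and saline array 3 stood above ethanol array 2, so the groups overlapped. Its difference of 0.15 ± 0.10 (SE; limma adjusted p = 0.859; 95% interval -0.08 to 0.38) was the largest of the 8. The gene lies on chromosome 14 from 48656781 to 48667644.

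For the comparison of ethanol with saline as a whole, 6 of the 8 genes had a positive difference and 2, Ttr and Clic6, a negative one, with a median of 0.08. Over all 41345 rows, 20979 were positive and 20366 negative, with a median of 0.00; over the 22180 genes, read at 1 row each as the members were, 12691 were positive and 9489 negative, with a median of 0.02. With limma 0 of the 8 genes passed an adjusted p under 0.05, where 0.0% of all rows passed. At an unadjusted p under 0.05, 0 of the 8 passed as well, against 5.54% of all rows and 705 of the 22180 genes. The groups overlapped in all 8, where 11.1% of all rows had groups that did not overlap (5.06% with every ethanol array above every saline array and 6.01% below). The intervals reached from -0.49 to 0.65 for Kl and from -0.25 to 0.21 for Ttr, so shifts within these bounds remain compatible with the values. The intervals do not give the smallest shift that the adjusted test could detect with 3 arrays per group.

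The sign counts rested on single arrays. Without ethanol array 3, 3 of the 8 genes were positive and 5 negative and the median difference was -0.09. Without ethanol array 2 all 8 were positive, with a median of 0.18, and without saline array 3 all 8 were positive too, with a median of 0.11. Without saline array 1 the median was 0.01. Rescaling also moved the median, to 0.12 with arrays centred on their medians, 0.03 with quantile normalization and 0.02 with cyclic loess.

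**Figure D2:**
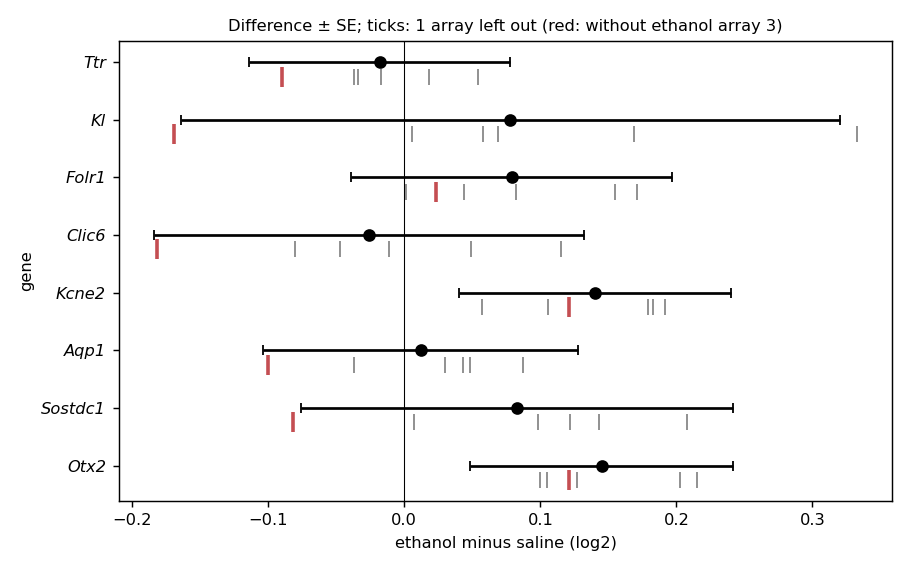
Difference between ethanol and saline for each gene on the log2 scale (points, with bars of ± 1 SE from the limma fit), and below each point the differences with 1 array left out (ticks; red without ethanol array 3). The red tick is the lowest tick for Ttr, Kl, Clic6, Aqp1 and Sostdc1, and the bars of all genes but Kcne2 and Otx2 cross 0.

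The spread between arrays was then described as deviations of each gene from its own mean over the 6 arrays. The median deviation of the 8 genes was 0.02, -0.15 and 0.19 on ethanol arrays 1 to 3 and -0.17, -0.05 and 0.06 on saline arrays 1 to 3. Ethanol array 3 thus stood at the high end, and ethanol array 2 and saline array 1 at the low end. Over all genes the medians stayed between -0.03 and 0.02. Ethanol array 3 was above ethanol array 2 in 8 of the 8 genes, against 47.2% of all genes, by 0.14 for Kcne2 to 1.01 for Kl. Both extremes fell on these arrays (highest on ethanol array 3, lowest on ethanol array 2) for 5 genes, Ttr, Kl, Clic6, Aqp1 and Sostdc1, against 2.76% of all genes. Ethanol array 3 alone was the highest for 12.6% of all genes, and ethanol array 2 alone the lowest for 17.4%. This order was chosen for counting after the values were seen, and the counts are a description with no test. The scaling of the arrays moved them: ethanol array 3 was the highest for 6, 5 and 4 of the 8 genes under median centring, quantile normalization and cyclic loess, and ethanol array 2 the lowest for 3, 5 and 5. Under each of the 3 scalings the median deviation stayed highest on ethanol array 3, at 0.19. That of ethanol array 2 was -0.09 under median centring, above saline array 1 at -0.18 and saline array 2 at -0.10, so its low position depended on the scaling, and it was -0.16 with quantile normalization and -0.20 with cyclic loess.

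**Figure D3:**
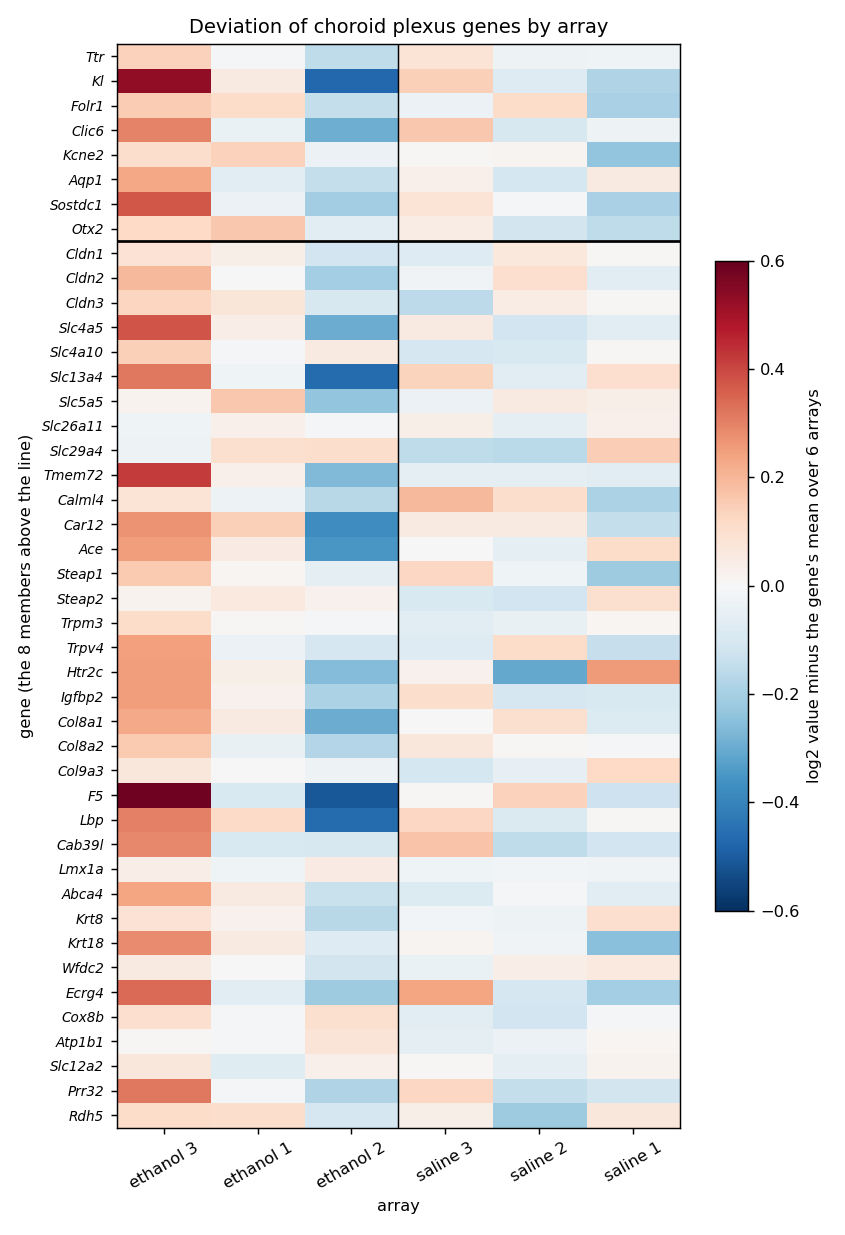
Deviation of each gene from its mean over the 6 arrays (colour, log2 units, red above and blue below) for the 8 genes above the line and 36 other choroid plexus genes below it, with arrays as columns. The column of ethanol array 3 is mostly red and that of ethanol array 2 mostly blue in both blocks, within the same treatment group.

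The genes were not alike in how closely they followed Ttr over the 6 arrays. As a description over 6 arrays, without a p-value because the genes were chosen with earlier results known, Clic6 had a Pearson r of 0.993 with Ttr (Spearman rho 0.943) and Kl one of 0.963 (rho 0.943). Sostdc1 followed at 0.887 and Aqp1 at 0.853 (rho 0.829 for both). Folr1 at 0.553, Otx2 at 0.551 and Kcne2 at 0.375 (rho 0.6, 0.6 and 0.486) followed less closely. Leaving out ethanol arrays 2 and 3, the arrays farthest from the Ttr median, r was 0.977 for Clic6, 0.811 for Kl and 0.714 for Sostdc1, but 0.432 for Aqp1, 0.405 for Otx2, 0.209 for Kcne2 and -0.10 for Folr1. Folr1 and Aqp1 thus lost the most without those arrays and Clic6 the least, and these values rest on 4 arrays. All points share the same arrays, so anything that moves a whole array enters every pair.

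**Figure D4:**
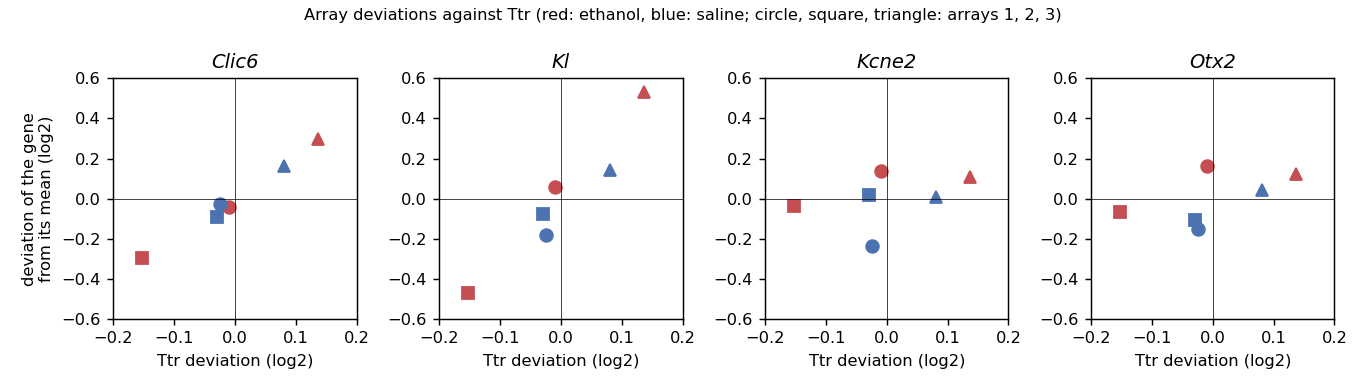
Deviation of Clic6, Kl, Kcne2 and Otx2 (vertical, log2 units) against that of Ttr (horizontal, log2 units) on the 6 arrays (red ethanol, blue saline; circle, square and triangle are arrays 1, 2 and 3). Clic6 and Kl lie nearly in the order of Ttr, whereas Kcne2 and Otx2 spread widely among arrays of similar Ttr level.

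The 5 named genes most like Ttr, out of 20487 genes outside the list whose range was at least 0.5 times that of Ttr, were Prg4 (r = 0.993 over 6 arrays), Ogn (0.989), Mir875 (0.987), Olfr609 (0.984) and Dysf (0.981). Ogn, the matrix proteoglycan osteoglycin, was on the list of meningeal fibroblast genes, and Prg4 encodes the lubricating proteoglycan lubricin. Prg4 stood at 6.33, 5.93 and 6.92 on ethanol arrays 1 to 3 and at 6.35, 6.31 and 6.64 on saline arrays 1 to 3. Ogn stood at 8.66, 8.08 and 9.12 on ethanol arrays 1 to 3 and at 8.49, 8.61 and 9.01 on saline arrays 1 to 3. Both were lowest on ethanol array 2 and highest on ethanol array 3. The Mir875 row was dim, between 2.49 and 2.70. These genes were picked as the highest r of a large screen over few arrays, so their r values carry no test.

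Other genes known from the choroid plexus were also higher on ethanol array 3 in most cases. Of 41 such genes, 36 were measured. Ethanol array 3 was above ethanol array 2 in 31 of the 36, with a median gap of 0.30, and was the highest array for 25 of them, while ethanol array 2 was the lowest for 18 and both held for 15. Their median deviation was 0.02, -0.12 and 0.16 on ethanol arrays 1 to 3 and 0.00, -0.05 and 0.00 on saline arrays 1 to 3, so saline array 1, the lowest for the 8 genes, stood near 0 here. The 15 included F5, coagulation factor V, at 7.23, 6.82 and 7.91 on ethanol arrays 1 to 3 and at 7.20, 7.46 and 7.33 on saline arrays 1 to 3. Slc13a4, a sulfate transporter, stood at 9.03, 8.59 and 9.37 on ethanol arrays 1 to 3 and at 9.15, 8.99 and 9.19 on saline arrays 1 to 3. Lbp, the lipopolysaccharide-binding protein, stood at 8.94, 8.36 and 9.13 in ethanol and at 8.83, 8.74 and 8.95 in saline. For each of these 3 genes, those with the widest range of the 36, every saline array lay between ethanol arrays 2 and 3. The 5 genes in which ethanol array 2 was the higher were Slc26a11, Slc29a4, Steap2, Lmx1a and Atp1b1, named after their values were seen. The sodium pump subunit Atp1b1 is also abundant in neurons. Expression outside the plexus was not examined for the 36 genes, those higher on ethanol array 3 included.

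Between ethanol and saline, 24 of the 36 were positive and 12 negative, with a median of 0.04, beside the 12691 positive and 9489 negative of all genes, with a median of 0.02. With limma 0 of the 36 passed an adjusted p under 0.05, where 0.0% of all rows passed. At an unadjusted p under 0.05, 0 of the 36 passed, against 705 of the 22180 genes. The smallest p-values were those of Cox8b, a cytochrome oxidase subunit, at 0.13 ± 0.08 (SE; limma adjusted p = 0.857), Slc4a10, a bicarbonate transporter, at 0.12 ± 0.08 (adjusted p = 0.859) and Krt18, an epithelial keratin, at 0.17 ± 0.12 (adjusted p = 0.862). Cox8b was the 1 gene of the 36 whose groups did not overlap, where 11.1% of all rows had groups that did not overlap. Over the 22180 genes, 1274 had every ethanol array above every saline array and 1046 had every ethanol array below.

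Markers of neighbouring cells moved with these genes to different degrees. The median deviation of 17 meningeal fibroblast genes was 0.00, -0.18 and 0.10 on ethanol arrays 1 to 3 and 0.01, -0.06 and 0.07 on saline arrays 1 to 3. The median of the meningeal list was thus also lowest on ethanol array 2 and highest on ethanol array 3. Of its 17 genes, 15 were higher on array 3 of ethanol than on array 2. The exceptions were the collagens Col1a1, at 8.56, 8.93 and 8.54 on ethanol arrays 1 to 3, and Col3a1, at 7.73, 7.85 and 7.82. The summed meningeal level, the log2 of the sum of unlogged values, ranged from 12.87 to 13.24 in ethanol and from 12.95 to 13.17 in saline. Ptgds, between 11.49 and 12.01, was the highest gene in that sum. For the 8 choroid plexus genes the summed level ranged from 13.37 to 13.71 in ethanol and from 13.49 to 13.62 in saline. Ttr, between 13.07 and 13.35, was the highest gene in the choroid plexus sum and weighed most in it. Among 18 genes of ependymal cells, the ciliated lining of the ventricles, the median deviations stayed between -0.03 and 0.04, and 13 were higher on ethanol array 3 than on ethanol array 2. The gap of ethanol array 3 over ethanol array 2 had a median of 0.08 in this list and ranged from -0.23 to 0.31. Foxj1, the regulator of motile cilia, stood at 7.23, 7.25 and 7.20 on ethanol arrays 1 to 3, without the gap seen in Ttr and Kl. Pifo, a dimmer gene, had the widest gap of the list, at 5.19, 5.24 and 5.56.

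Genes of myelinating oligodendrocytes ran the other way on the same arrays. Their median deviation over 15 genes was 0.07, 0.19 and -0.21 on ethanol arrays 1 to 3 and 0.05, -0.02 and -0.13 on saline arrays 1 to 3, so ethanol array 3 was the lowest and ethanol array 2 the highest. In 0 of the 15 was ethanol array 3 above ethanol array 2. Mog, a myelin surface protein, stood at 10.58, 10.85 and 10.27 on ethanol arrays 1 to 3 and at 10.75, 10.44 and 10.38 on saline arrays 1 to 3. The summed oligodendrocyte level ranged from 14.62 to 15.00 in ethanol and from 14.68 to 14.91 in saline. Endothelial genes had median deviations of 0.04, 0.14 and -0.05 on ethanol arrays 1 to 3 and 0.080, -0.145 and -0.089 on saline arrays 1 to 3, lowest on saline array 2, with 2 of 14 genes higher on ethanol array 3 than on ethanol array 2. The part of these cell types in the spread of the choroid plexus genes was not tested.

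**Figure D5:**
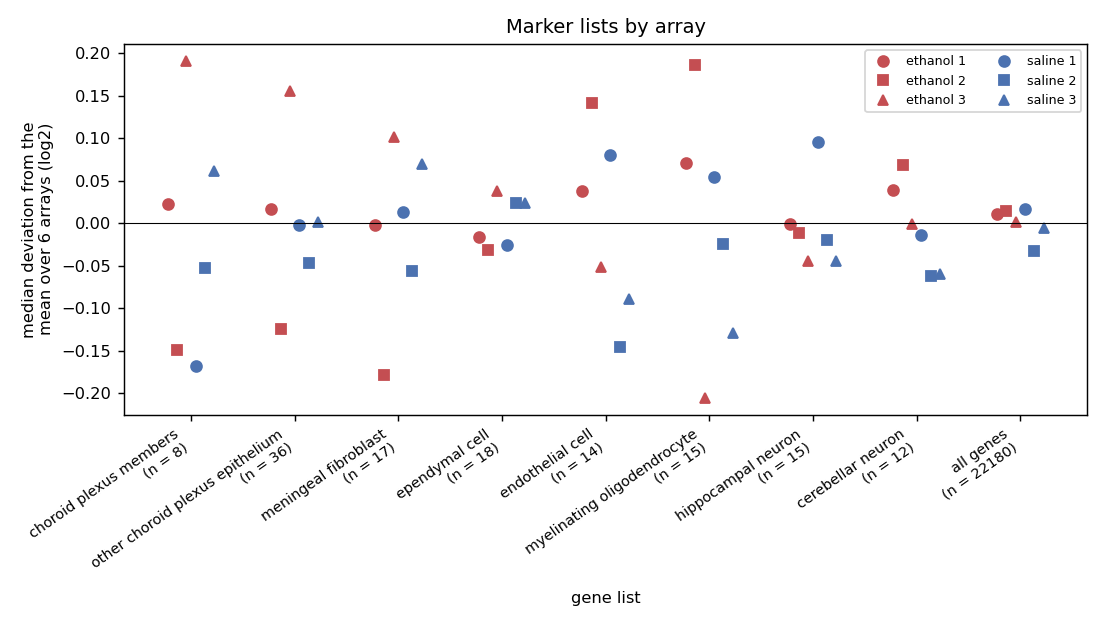
Median deviation from the mean over the 6 arrays (log2 units) for each marker list except thalamus and habenula, and for all genes, by array (red ethanol, blue saline; circle, square and triangle are arrays 1, 2 and 3). Ethanol array 3 is highest and ethanol array 2 low for the choroid plexus and meningeal lists, and the reverse holds for oligodendrocyte genes. The medians of all genes lie between -0.033 and 0.017.

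Saline array 1 stood apart in another marker. It stood at 8.47 for Tcf7l2, a transcription factor of thalamus and habenula, where the other 5 arrays lay between 7.00 and 7.17, and over 14 thalamus and habenula genes its median deviation, 0.13, was the highest of the arrays. On that array the deviation was between -0.24 and -0.15 for Kl, Folr1, Kcne2, Sostdc1 and Otx2, -0.029 for Clic6, -0.025 for Ttr and 0.06 for Aqp1, and it was the lowest array for Folr1, Kcne2 and Otx2. Among the neuronal lists, the median deviations of 15 hippocampal neuron genes stayed between -0.04 and 0.10 and were also highest on saline array 1. Those of 12 cerebellar neuron genes stayed between -0.06 and 0.07, with -0.01 on saline array 1.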

How the data were processed

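The deposited values were on a log2 scale, as their range and the like quartiles of all arrays show, and the authors had reduced them to 1 value per probe row. The labels' protocols give 200 ng of total RNA as input, labelled with biotin. Background correction and normalization are not given in the sources used here; the genome build was mm 10 per the submitters' processing notes. Of 41345 rows, 23521 named 1 gene in the platform annotation, and a gene with several rows was read from that with the highest mean. The test was limma (version 3.58.1, R version 4.3.3; lmFit, eBayes), two-sided, unfiltered and without covariates, Benjamini-Hochberg adjusted over all rows; 95% intervals used 4 residual and 2.94 prior degrees of freedom. The limma script was tested on simulated data. The number of arrays limits the precision. All members were named. Of each other list, the genes eligible by rule were the 3 of smallest p and the 3 of widest range. Of all genes they were the 5 most like Ttr. Gabra6, Neurod6, Emx1, Spink8, Prox1 and Foxj1 were added as defining markers after their values were seen. Neurod2, Wfs1, Bok, Col1a1 and Ptgds were likewise named after their values were seen. The members and lists were chosen with earlier results of these data known. Positions are those of RefSeq genes on GRCm38. Alternatives covered scaling, prior, array weights, row filters, the row per gene, the replicate number as a block, the threshold and leaving out each array.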

Additional observations from a re-analysis of the deposited data

How the results depend on the processing

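Over the settings tried, limma called 0 of the 8 choroid plexus genes and 0 of the 36 other choroid plexus genes, also at an unadjusted p under 0.05; over all rows it called 0 to 1 leaving out 1 array and 2290 at an unadjusted p. Leaving out 1 array gave 3 to 8 genes positive, 0 to 5 negative and a median difference from -0.086 to 0.182; the 3 positive and the -0.086 are those without ethanol array 3. Median centring, which raises the median difference of all rows to 0.04, left 0 negative, with Ttr at 0.021 and Clic6 at 0.013; cyclic loess put Aqp1 at -0.002. Differences also changed sign leaving out 1 array: Ttr ranged from -0.09 to 0.054, Clic6 from -0.182 to 0.115, Kl from -0.169 to 0.333, Aqp1 from -0.1 to 0.087 and Sostdc1 from -0.082 to 0.208. Folr1, Kcne2 and Otx2 kept a positive sign in the 17 other settings. The prior, the row filters, the row per gene and the block leave a member's difference as it was. Its sign could thus change only with the scaling, the array weights or an array left out. Without saline array 1, the differences of Folr1, Kcne2 and Otx2 were 0.001, 0.057 and 0.105. With the replicate number as a block, 0 of the 8 were called. The 6 positive, the 2 negative and the median of 0.079 could not change there, because every number occurs in both groups. Same-numbered arrays correlated at 0.101, -0.056 and 0.038 in their deviations from the group means, so the numbers were not taken as pairs. Not every array correlated best with its own number. The cause of these changes was not tested.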
